A study of Mus musculus with 6 samples.

Results

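The Obox family is a group of mouse homeobox genes that lie in one region of chromosome 7. Its members here were the 6 genes of the deposited expression table whose symbol is Obox1, Obox2, Obox3, Obox5, Obox6 or Obox7, out of 25631 genes listed. They were taken by name and not by their values, though earlier results of these data were known when they were chosen. Oocytes were punctured out of large antral follicles of naturally aged, 14-month-old female ICR mice that had been primed with equine chorionic gonadotropin, which stimulates follicle growth. Mice of the aminophylline group (n = 3 libraries) were given 4 mM aminophylline, a theophylline compound that inhibits phosphodiesterases, in their drinking water for 1 week and then plain water for 3 weeks. Mice of the control group (n = 3 libraries) had the same age and drank water without the drug. Per the labels RNA was extracted with TRIzol, and the sources used here do not say how many mice or oocytes each library holds, so p-values measure the spread between these libraries, which may be partly technical. The comparison asks whether the drug changed the Obox transcripts that an aged oocyte carries.

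Obox proteins are homeodomain transcription factors of the paired-like kind, made mainly in oocytes and early embryos. The growing oocyte stores their mRNA, and after fertilization the proteins take part in zygotic genome activation, the first transcription from the embryo's own genome. Obox1, Obox2, Obox5 and Obox7 are known as the maternal members and Obox3 as a member switched on in the embryo, and the members can stand in for one another. Obox6 is known for a role in reprogramming cells to pluripotency.

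In these libraries the 4 maternal members were among the abundant transcripts, while Obox3 and Obox6 were present at a few reads. None of the 4 abundant members passed the test between the groups, and their difference between the groups was smaller than the spread among the libraries of a group. The family's transcript level was lowest in the libraries numbered 3 of both groups. The share of the family taken by Obox7 was higher in every aminophylline library than in every control library. This comparison was picked out after the values were seen, and 12.5% of all genes tested had FPKM groups without overlap.

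The family lies on mouse chromosome 7 of the GRCm38 build, between 14659708 and 15839679, a span of 1179972 bp that also holds 41 of the 47 pseudogenes annotated with an Obox name. Obox7 (NCBI gene 194588, plus strand, 14659708 to 14665996) opens the span. Obox2 (gene 246792, plus strand, 15388851 to 15398545), Obox1 (gene 71468, plus strand, 15547257 to 15556846) and Obox3 (gene 246791, minus strand, 15625306 to 15639777) follow. Obox5 (gene 252829, plus strand, 15750370 to 15759274) and Obox6 (gene 252830, minus strand, 15833250 to 15839679) close it. The GENCODE M21 transcript used for each had 3 exons in Obox6, 5 in Obox3 and 4 in the others.

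The RefSeq promoter windows of GRCm38.p6, which run from 250 bases before the annotated start to 50 after it, are shown in part because they hold what the members share and the choice by name did not use. Windows were found for Obox1, Obox2, Obox3, Obox5 and Obox7. Each piece below runs 5′ to 3′ on the gene's own strand and ends at the last base before the annotated start. Capitals mark first a stretch of 25 bases present in all 5 windows and then TATATAAG, a TATA box with its flank.
Obox1 at chr7:15547159-15547256, plus strand: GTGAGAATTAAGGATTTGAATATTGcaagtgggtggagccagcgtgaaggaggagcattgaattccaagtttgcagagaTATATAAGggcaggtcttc
Obox5 at chr7:15750260-15750369, plus strand: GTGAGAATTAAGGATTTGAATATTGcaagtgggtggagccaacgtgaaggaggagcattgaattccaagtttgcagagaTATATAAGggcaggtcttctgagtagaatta
Obox7 at chr7:14659624-14659707, plus strand: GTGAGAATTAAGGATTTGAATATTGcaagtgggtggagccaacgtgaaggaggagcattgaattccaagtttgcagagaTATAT
Obox3 at chr7:15639778-15639886, minus strand: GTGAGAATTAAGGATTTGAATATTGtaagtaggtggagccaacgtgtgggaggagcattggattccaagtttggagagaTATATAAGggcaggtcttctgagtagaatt

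The stretch of 25 bases was present, on either strand, in 0 of the 27020 promoter windows of other genes. A longer stretch of 44 bases around it was shared letter for letter by the 4 maternal members and was also in 0 of 27020 other windows. Another stretch, of 42 bases around the TATA box, was shared by Obox1, Obox3, Obox5 and Obox7 and was in 0 of 27020 other windows. The Obox2 window ends before the place where this stretch and its TATA box would lie, so whether Obox2 has them could not be seen. Obox3, whose transcript was almost absent, thus shared one of the longer stretches and not the other. TATATAAG was in the windows of Obox1, Obox3, Obox5 and Obox7 and in 1.06% of other windows. It began 19 bases before the annotated start in Obox1, 30 in Obox3, 31 in Obox5 and 5 in Obox7, where it runs past the end of the printed piece. The annotated start of Obox2 lies further upstream relative to the others, so that the shared stretch began 1 base before it and only 203 bases of its window could be aligned with that of Obox1. All 203 were identical. The windows of Obox5 and Obox7 were 97.1% identical over 274 aligned bases, and Obox3 was 72.8% to 81.5% identical to the 4 maternal members. GGATTA, the core bound by the related OTX and CRX homeodomain proteins, was searched on both strands and found in the Obox3 window only, against 7.16% of other windows. These matches describe the letters and not binding.

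The members are so alike in their transcripts that reads can fit more than one of them. Obox1 and Obox2 were 99.2% identical over 1459 aligned bases, and Obox5 and Obox7 were 95.3% identical over 1220. Obox6 stood apart, with 76.9% to 79.0% identity to the others. Of all windows of 100 bases in the Obox1 transcript, 40.9% occurred unchanged in another member, always Obox2, and 42.5% of the Obox2 windows occurred in Obox1. The same share was 0.12% for Obox5, 2.69% for Obox7 and 0% for Obox6. Obox3 shared 19.9% of its windows with other genes, mostly with the pseudogene Obox3-ps3 and none with another member. With windows of 50 bases the share found in another member was 59.3% for Obox1, 62.1% for Obox2, 11.8% for Obox5 and 18.9% for Obox7. These shares describe the GENCODE M21 transcripts. The lengths behind the FPKM were shorter for Obox1 (1217 against 1512 bases), Obox2 (1329 against 1459), Obox5 (1312 against 1831) and Obox7 (1264 against 1476). For Obox6 they were 1336 against 1344 bases, and for Obox3 both were 1603. The shares may therefore differ in the gene models that were counted. How the authors' counting treated reads that fit several genes is not given in the sources used here, so Obox1 and Obox2 are best read as a sum, and Obox5 and Obox7 can be read as genes only for the reads that tell them apart. None of the Obox pseudogenes was listed in the table.

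**Figure D1:**
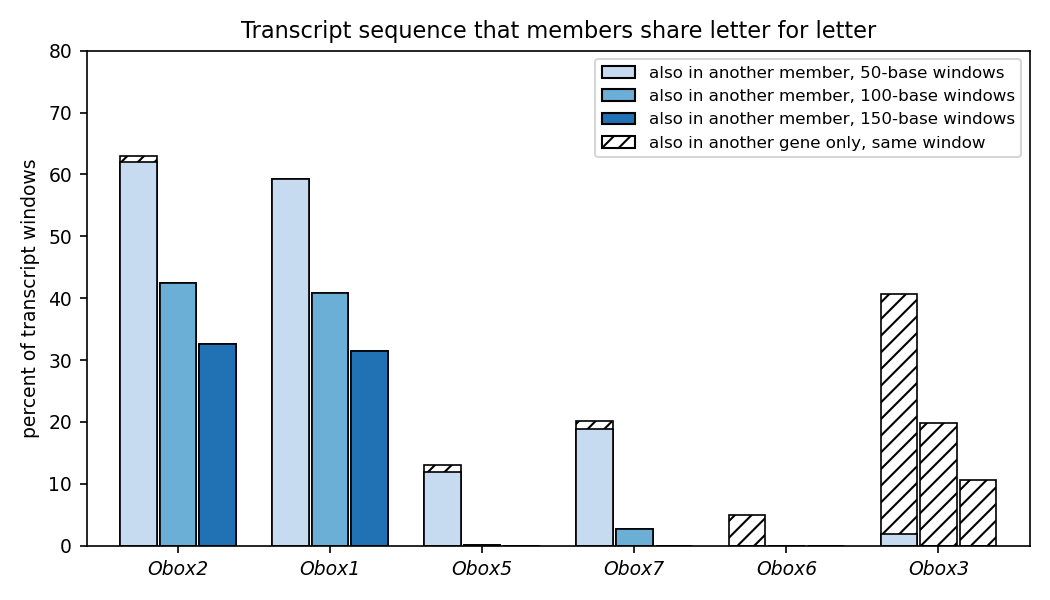
Percent of all windows of 50, 100 or 150 bases in each member's transcript that occur letter for letter in another Obox member (filled) or only in another annotated gene (hatched). Obox1 and Obox2 share most, and for Obox3 the shared windows lie in other genes, mostly pseudogenes.

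The values are FPKM, the fragments counted on a gene divided by its length and by the library's total, which allows levels of different genes to be compared. Whole read numbers were recovered behind the FPKM, and totals were 14112341 to 33641283 per library, with control library 2 the shallowest. The oocyte marker list, which includes the egg coat gene Zp3 and the growth factor gene Gdf9, was present in every library at a summed 10017 to 15450 FPKM, with all 10 genes above 1 FPKM and Zp3, Gdf9, Ooep and Oosp1 the highest. The germ cell factor gene Figla was past the threshold used below (log2 fold change 0.50 with aminophylline, limma adjusted p = 0.682), though not without control library 1, and no other of the 10 was. Control library 1 stood apart. Its oocyte marker sum was the lowest, and 8 of the 9 listed macrophage markers were higher there than in any other library, among them Lyz2 at 66.4 FPKM against at most 0.573 elsewhere and C1qc at 14.8 FPKM against 0 in the other 5. The macrophage marker sum was 182 FPKM in that library and 81.0 to 102 in the others, where most of it was C1qb at 79.2 to 99.8 FPKM. Lyz2 and C1qc were picked out after their values were seen. Granulosa markers summed to 9.24 to 16.5 FPKM, mostly Cyp19a1 at 7.37 to 15.7, and 7 of the 9 listed were under 1 FPKM in all libraries. Endothelial markers summed to 5.63 to 8.89 FPKM, mostly Pecam1 at 4.87 to 6.66, stroma markers to 0.515 to 1.60 and erythrocyte markers to 0.0486 to 0.585. The part of these transcripts in the Obox values was not tested. Fold changes of the tested members, the family sum and the calls of listed genes are also given without control library 1. Other results are given over all libraries only. Among them are the correlations, the shares, the sum of Obox1 and Obox2, and the values of Obox3 and Obox6. In FPKM, a smaller part of oocyte RNA in a library and less of a transcript in each oocyte cannot be told apart.

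Obox2 was the most abundant member. It was measured at 4967, 3901 and 2915 FPKM in control libraries 1, 2 and 3, and at 4261, 3835 and 2975 FPKM in aminophylline libraries 1, 2 and 3. The groups overlapped over most of their range, with the highest value in control library 1 and the lowest in control library 3. Obox2 ranked between 10 and 15 among the 25631 genes of a library. The means were 3928 ± 1026 FPKM (SD, n = 3) in controls and 3690 ± 655 (SD, n = 3) with aminophylline, and the log2 fold change was −0.07 (SE 0.22, 95% interval −0.55 to 0.41, limma adjusted p = 0.941).

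Obox1, its near-identical neighbour, was measured at 2983, 2551 and 1725 FPKM in the controls and at 2567, 2352 and 1693 FPKM under aminophylline. Again control library 1 was highest, both libraries numbered 3 were lowest, and the groups overlapped. Obox1 was below Obox2 in 6 of 6 libraries, at 0.569 to 0.654 times its level, a ratio that depends on how shared reads were assigned. Its log2 fold change was −0.12 (SE 0.23, 95% interval −0.62 to 0.38, limma adjusted p = 0.898). Summed, Obox1 and Obox2 came to 6348 ± 1658 FPKM (SD, n = 3) in controls and 5894 ± 1109 (SD, n = 3) with aminophylline.

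Obox5 was measured at 2183, 1571 and 1425 FPKM in the controls and at 1796, 1596 and 1368 FPKM under aminophylline. Aminophylline libraries 1 and 2 lay between the control values and library 3 lay just below them, so the groups overlapped. The log2 fold change was −0.11 (SE 0.19, 95% interval −0.53 to 0.32, limma adjusted p = 0.892). In FPKM, Obox5 was below Obox1 in 6 of 6 libraries, at ratios of Obox1 to Obox5 of 1.21 to 1.62.

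Obox7, the member at the far end of the cluster, was lower than the other maternal members in every library, with Obox5 at 3.98 to 6.22 times its level. It was measured at 421, 317 and 229 FPKM in the controls and at 431, 401 and 265 FPKM under aminophylline, and it ranked between 232 and 424. It was the tested member with a higher mean under aminophylline, 366 ± 88.3 FPKM (SD, n = 3) against 322 ± 96.1 (SD, n = 3) in controls. The groups overlapped, since aminophylline library 3 lay below control libraries 1 and 2. The log2 fold change was 0.19 (SE 0.24, 95% interval −0.34 to 0.73, limma adjusted p = 0.834).

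The order of levels, Obox2 above Obox1 above Obox5 above Obox7, held inside each of the 6 libraries. Across libraries, however, the lowest Obox2 value (2915 FPKM) was below the highest Obox1 value (2983 FPKM), and the lowest Obox1 value (1693 FPKM) was below the highest Obox5 value (2183 FPKM). The Obox7 values, at most 431 FPKM, did not reach those of Obox5, at least 1368 FPKM.

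**Figure D2:**
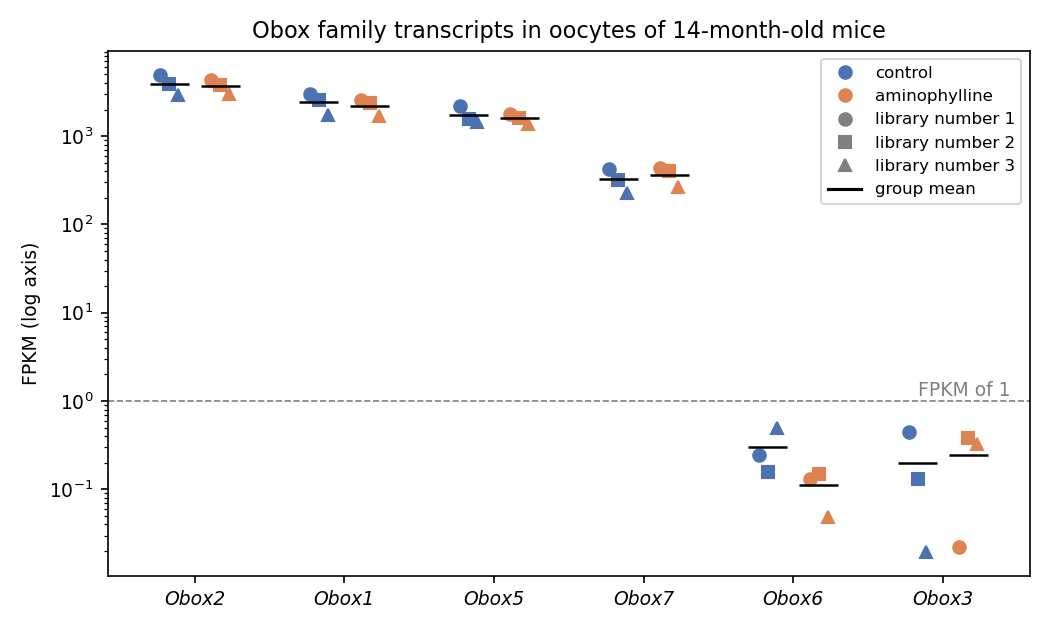
FPKM of each Obox member (log axis) in the 3 control (blue) and 3 aminophylline (orange) libraries, with the library number as the point's shape and the group mean as a line. Obox2, Obox1, Obox5 and Obox7 lie between 229 and 4967 FPKM, and Obox6 and Obox3 lie below 1 FPKM in every library.

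Obox3, the embryonic member, was almost absent. It had 24, 3 and 1 reads in control libraries 1, 2 and 3, and 1, 15 and 16 reads in aminophylline libraries 1, 2 and 3, or 0.0196 to 0.445 FPKM. The values differed 22.7-fold between the highest and the lowest library and the groups overlapped fully. As RPM, the reads scaled by the library's total, Obox3 was at 0.319 ± 0.353 (SD, n = 3) in controls and 0.388 ± 0.308 (SD, n = 3) with aminophylline (exact permutation test over libraries, two-sided p = 0.9). A part of the Obox3 transcript is shared with Obox3-ps3, and for that part reads of the gene and of the pseudogene cannot be told apart.

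Obox6 had 11, 3 and 21 reads in the controls and 5, 5 and 2 reads under aminophylline, or 0.0489 to 0.494 FPKM. In FPKM and in RPM, each control value was above each aminophylline value, the nearest being 0.213 RPM in control library 2 and 0.202 in aminophylline library 2, from 3 and 5 reads. The exact two-sided permutation p over libraries was 0.1, the smallest that 3 against 3 allows. Among the 5199 genes with 20 to 200 reads in all that failed the filter on low values, 11.5% had groups that did not overlap, so a gap of this kind was common at this depth. The exact test cannot go below 0.1 at any depth, and 2 of the 6 libraries held 3 reads or fewer. It therefore could not decide whether Obox6 differed. In a limma fit without the filter, the log2 fold change of Obox6 was −0.22 (limma unadjusted p = 0.0715, adjusted p = 0.836).

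Of the 6 members, 4 passed the filter for testing, which asked for 1 FPKM or more in 3 or more libraries, and 2 did not. Past the threshold of an unadjusted p of 0.05 were 0 of the 4, against 7.25% of the 10340 genes tested (4.41% higher and 2.84% lower with aminophylline). No gene of the table, members included, reached an adjusted p of 0.05 in this limma fit, nor with limma's voom on the recovered reads, which placed 761 genes and again 0 members past the unadjusted threshold. A limma fit with the library number as a block, described below, gave 47 genes (0.455%) an adjusted p under 0.05, none of them a member. The split of the calls over all genes depended on scaling: 456 were higher and 294 lower in FPKM as deposited, 281 and 292 after rescaling to a common sum, 347 and 528 after quantile normalization and 281 and 502 after median centring. Groups without overlap were found for 0 of the 4 tested members and for 12.5% of all genes tested. The 4 fold changes had a median of −0.09, beside 0.10 for all genes tested. The 95% intervals of the 4 fold changes covered 0.649 to 1.30 times the control level for Obox1, 0.683 to 1.33 for Obox2, 0.694 to 1.25 for Obox5 and 0.789 to 1.66 for Obox7, so changes within these limits could not be told from none.

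Control library 1, with the macrophage transcripts, held the highest values of Obox1, Obox2 and Obox5, and the direction of these fold changes depended on it. Without it the log2 fold change was 0.049 for Obox1, 0.11 for Obox2, 0.076 for Obox5 and 0.41 for Obox7, none past the threshold. Without aminophylline library 3 the fold changes of Obox1 and Obox2 were likewise above 0, at 0.059 and 0.075, and without control library 3 that of Obox7 was −0.030. No direction is therefore given for a tested member.

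**Figure D3:**
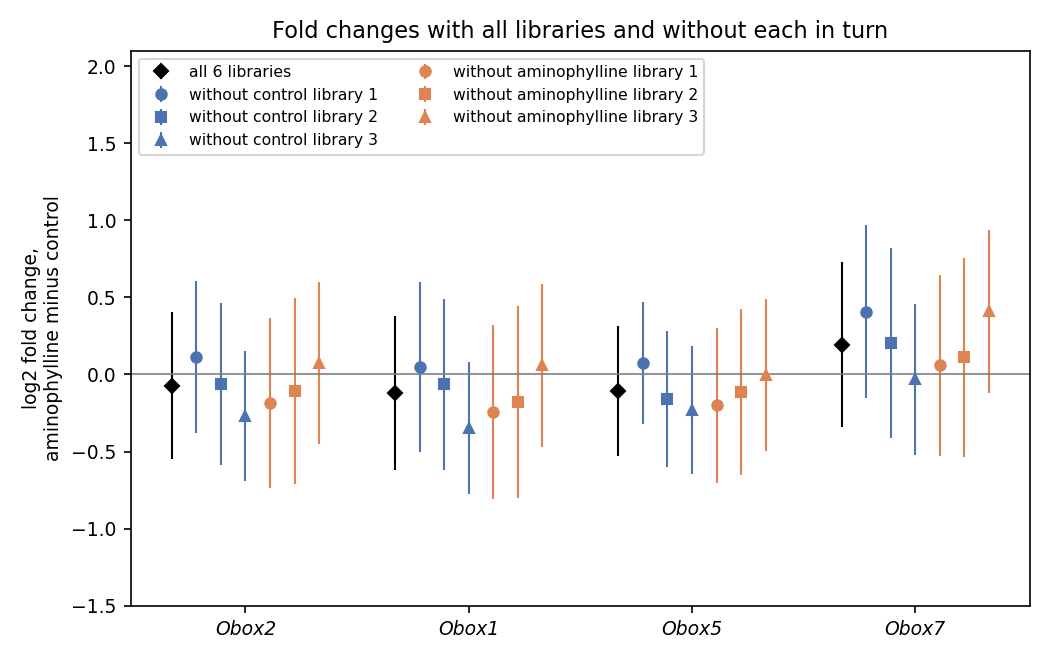
Log2 fold change (aminophylline minus control, limma on log2(FPKM + 1)) of the 4 tested members with its 95% interval, from all 6 libraries (black) and after leaving out each control (blue) or aminophylline (orange) library. Every interval includes 0, and the points of each of the 4 members fall on either side of 0.

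Since reads may be split among the members, the family was also summed. The 6 members together came to 10555, 8340 and 6295 FPKM in the controls and to 9055, 8185 and 6301 FPKM under aminophylline. These sums made up 0.813% to 1.36% of all reads in a library, with 95% Wilson intervals of 0.810% to 0.816% at the lowest and 1.36% to 1.37% at the highest, which cover counting error only. The mean was 8397 ± 2131 FPKM (SD, n = 3) in controls and 7847 ± 1408 (SD, n = 3) with aminophylline, a ratio of 0.935. On the log2 scale the difference was −0.08, against SDs of 0.37 among control and 0.27 among aminophylline libraries. Without control library 1 it was 0.10. Obox3 and Obox6 added less than 1 FPKM to any sum, so the sum over the 4 maternal members gave the same difference of −0.08.

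In both groups the library numbered 3 had the lowest level of all 4 tested members, while 13.1% of all genes tested showed this pattern. The members share reads and a gene cluster and are not 4 separate observations of it. The family sum of library 1 was above that of library 3 by 0.75 on the log2 scale in controls and by 0.52 with aminophylline. Within a number, aminophylline minus control was −0.22 for libraries 1, −0.027 for libraries 2 and 0.0015 for libraries 3. A fit with the number as a block, in which all genes past the threshold rose to 14.2% of those tested, still placed 0 of the 4 members past it, with limma adjusted p-values of 0.601 to 0.868. The labels do not say what libraries of one number share.

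**Figure D4:**
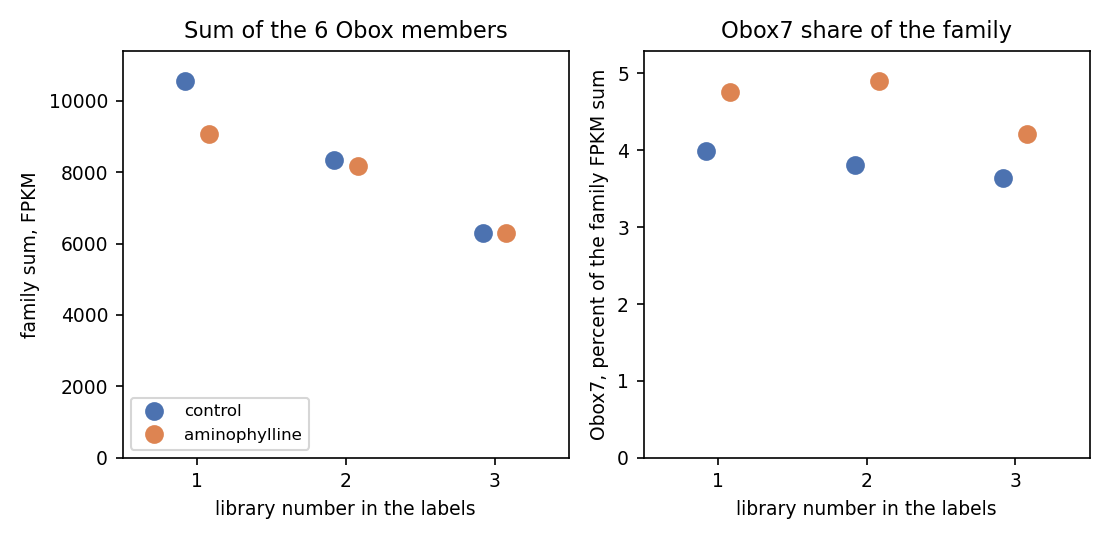
Left, sum of the FPKM of the 6 Obox members in each library by the library's number in the labels. Right, percent of that sum that was Obox7. The sums run from 6295 to 10555 FPKM with both libraries numbered 3 lowest, and the Obox7 share is 3.64% to 3.99% in controls and 4.21% to 4.90% with aminophylline.

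The make-up of the family varied little. Obox2 took 46.3% to 47.2% of the family FPKM, Obox1 26.9% to 30.6% and Obox5 18.8% to 22.6%, with overlapping groups for each. Obox7 took 3.99%, 3.80% and 3.64% in control libraries 1, 2 and 3, and 4.76%, 4.90% and 4.21% in aminophylline libraries 1, 2 and 3. Each aminophylline share was above each control share, with means of 4.62% ± 0.37 (SD, n = 3) and 3.81% ± 0.18 (SD, n = 3). Leaving out control library 1 could not undo such a gap and is no further check of it. The exact two-sided permutation p was 0.1, the smallest that 3 against 3 allows, and 0.4 after Benjamini-Hochberg adjustment over the 4 shares examined. The comparison was chosen after the values were seen. Groups without overlap in FPKM were found for 12.5% of all genes tested. The shares also depend on how reads that fit several members were assigned. Obox7 was also set against Obox5 alone, the member most identical to it over aligned transcript bases, at 95.3%. The ratio of Obox7 to Obox5 was 0.193, 0.202 and 0.161 in the controls. Under aminophylline it was 0.240, 0.251 and 0.194, and the groups overlapped (exact permutation p = 0.2).

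The levels of the 4 members varied together over the 6 libraries, with Pearson correlations of log2 FPKM of 0.984 for Obox1 and Obox2, 0.947 for Obox2 and Obox5, 0.905 for Obox2 and Obox7, 0.891 for Obox1 and Obox5, 0.873 for Obox1 and Obox7 and 0.805 for Obox5 and Obox7 (n = 6 libraries). The pairs share libraries and stretches of sequence, Obox1 and Obox2 the most, so reads may be shared as well. The 5 genes outside the family whose pattern was most like the family sum, of 4268 with a mean of at least 10 FPKM, were Dnajc5g (r = 0.992), Mapk1ip1 (r = 0.985), Tmem29 (r = 0.984), Taf9 (r = 0.967) and Aig1 (r = 0.964). Each is a description over 6 libraries. Dnajc5g, for example, was measured at 19.0, 14.8 and 11.2 FPKM in the controls and at 16.3, 13.9 and 11.5 under aminophylline. Its level was about as spread as that of the family, 1.70-fold between the highest and the lowest library against 1.68-fold for the family sum, while the other 4 genes were less spread, at 1.24-fold for Mapk1ip1, 1.29-fold for Aig1, 1.31-fold for Tmem29 and 1.41-fold for Taf9.

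The genes of the region that were looked up, picked without a rule, did not share the high level of the maternal members. Other genes in and around the span were not looked up. Sult2a7, a sulfotransferase gene of the region, was at 0.900 to 1.71 FPKM. Crx, the homeobox gene of photoreceptors, was at 0 to 0.0134 FPKM, and Crxos, which overlaps it on the opposite strand, at 0 to 0.0594 FPKM.

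Homeobox genes outside the family were looked up from a list of 152, of which 121 were in the table and 27 passed the filter. The list was chosen with earlier results of these data known, so its counts here and below describe it and do not test it. Past the threshold 3 were higher and 1 was lower with aminophylline, 4 of 27 beside 7.25% of all genes, and none reached an adjusted p of 0.05. The median fold change of the 27 was 0.08 on the log2 scale, beside 0.10 for all genes tested. Pou5f1, which encodes the pluripotency factor OCT4, was at 5.05, 7.56 and 7.30 FPKM in the controls and at 12.1, 18.0 and 11.5 FPKM under aminophylline, with no overlap (log2 fold change 0.95, SE 0.24, limma adjusted p = 0.651). Gbx2 (log2 fold change 0.70) and Isl2 (0.60), which encode developmental transcription factors, were also past the threshold upward and Meis2 (−0.57), which encodes a TALE homeodomain partner of Hox proteins, downward. Without control library 1 only Pou5f1 of these stayed past the threshold. Nobox, which encodes a homeodomain factor that oocytes need for follicle growth, was at 298 ± 77.4 FPKM (SD, n = 3) in controls and 299 ± 55.0 (SD, n = 3) with aminophylline, so each of Obox1, Obox2 and Obox5 was at least 1368 FPKM where Nobox was at most 364. Noto (67.3 to 120 FPKM) and Sebox (72.5 to 131 FPKM), a homeobox gene stored in the oocyte, did not pass the threshold.

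With the number as a block, 8 of the 27 homeobox genes were past the threshold, beside 14.2% of all genes, and 1, Pou5f1, had an adjusted p under 0.05, beside 0.455% of all genes (limma adjusted p = 0.0374, with a range of 0.0374 to 0.999 over the alternatives). The block with median centring, added after the values were seen, gave no gene of the table an adjusted p under 0.05.

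Genes around the function of the Obox proteins are maternal factors of genome activation and genes switched on at the 2-cell stage. They were taken from a list of 58, of which 47 were in the table and 33 passed the filter. This list too was chosen with earlier results of these data known, so its counts here and below describe it and do not test it. Past the threshold 2 were higher and 2 lower with aminophylline, 4 of 33 beside 7.25% of all genes, and the median log2 fold change was 0.19. Zar1, which encodes an RNA-binding protein of the oocyte that the embryo's first divisions need, was at 238, 396 and 400 FPKM in the controls and at 585, 473 and 677 FPKM under aminophylline, with no overlap (log2 fold change 0.77, SE 0.22, limma adjusted p = 0.651). Pou5f1 is on this list as well. Tbp, which encodes the TATA-binding protein, was at 134, 84.5 and 104 FPKM in the controls and at 62.4, 66.3 and 62.6 FPKM under aminophylline, with no overlap (log2 fold change −0.72, SE 0.19, limma adjusted p = 0.651). Zscan4d, a gene of the 2-cell embryo, was low in all libraries, at 9.62, 4.02 and 10.4 FPKM in controls and at 4.14, 2.98 and 2.38 FPKM with aminophylline, where the groups overlapped narrowly (log2 fold change −1.05, limma adjusted p = 0.661). Its reads can also fit its near-identical Zscan4 copies, so its values are uncertain. All 4 stayed past the unadjusted threshold without control library 1.

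With the number as a block 7 of the 33 were past the threshold, beside 14.2% of all genes, and Pou5f1, Zscan4d and Zar1 had limma adjusted p-values of 0.0374, 0.0457 and 0.0495, the last 2 with ranges of 0.0457 to 0.999 and 0.0495 to 0.999 over the alternatives. These are 3 of 33, beside 0.455% of all genes at that adjusted threshold. Because of how the list was chosen, this is no test of genome activation genes as a set. The abundant members of the list that did not pass the threshold were Dppa3 (Stella) at 7462 to 11563 FPKM, Btg4 at 1110 to 1443 FPKM and Zar1l at 540 to 791 FPKM. Dppa3, which protects maternal methylation after fertilization, was above the sum of the whole Obox family in 5 of 6 libraries, the exception being control library 1 with a family sum of 10555 and a Dppa3 level of 9620 FPKM.

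**Figure D5:**
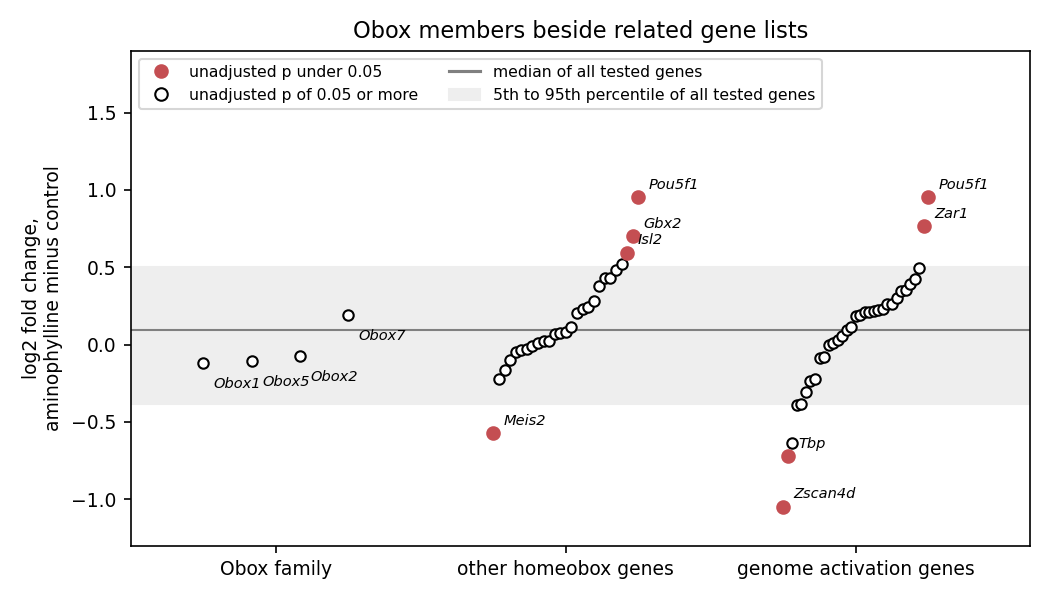
Log2 fold change (aminophylline minus control) of the 4 tested Obox members, of 27 other homeobox genes and of 33 genome activation genes, with those at an unadjusted p under 0.05 in red and the median and the 5th to 95th percentile of all 10340 tested genes as a line and a band. The Obox members lie inside the band of −0.39 to 0.50.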

How the data were processed

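The authors deposited FPKM values per gene for 6 libraries, that is, fragments counted on a gene divided by its length and by the library total, with no further scaling between libraries. The builds GRCm38 and mm10 are named in the submitters' processing notes. The program, the annotation and whether strand was used in counting are not given in the sources used here. Read numbers behind the FPKM were recovered from their ratios between libraries, and 100% of values came out whole within 0.01. Groups were taken from the labels. Genes that reached 1 FPKM in 3 or more of the 6 libraries were tested with limma 3.58.1 in R 4.3.3 (moderated variance with a trend) on log2(FPKM + 1), two-sided, with Benjamini-Hochberg adjustment over the 10340 genes. Fold changes are on this scale and understate changes of low genes. Past the threshold means an unadjusted p under 0.05. The study names a two-tailed unpaired test for its data without saying how transcripts were called, and an unmoderated linear model was an alternative.

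The members and gene lists were chosen with earlier results of these data known. All 6 members were named. From each list the text names genes past the threshold and the 4 with the highest mean FPKM, and the 5 named genes outside the family with the highest correlation with its sum. Neighbours were added without a rule. Sums over members were given no p-value. Transcripts came from GENCODE M21, promoters from RefSeq. The labels number the libraries 1 to 3 in both groups. Deviations from the group means of same-numbered libraries correlated at 0.14, 0.14 and 0.55, each over 0.1, which met the rule set for pairing. No source says what same-numbered libraries share. Libraries of different numbers were not set beside them, so these values do not show that the libraries are paired. The main fit and the permutation tests leave the numbers out, and a fit with the number as a block is given beside results it moves. On simulated data with these groups and depths, 196 of 196 genes with 4-fold changes among 10318 were recovered. There, limma called 17 others at an adjusted p under 0.05 and 567 at an unadjusted p under 0.05. The simulation had no effect of the library number and no outlying library. It held only 4-fold changes and so does not show how well changes as small as those of the members would be found. Values were handled with Python 3.11.15, numpy 2.4.6, scipy 1.17.1, pandas 2.3.3 and Biopython 1.88, and plotted with matplotlib 3.10.9.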

Additional observations from a re-analysis of the deposited data

How the results depend on the processing

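None of the 4 tested Obox members passed the unadjusted threshold of 0.05 under any of the 16 alternatives. Their unadjusted p-values were 0.104 to 0.99 (limma or its alternatives). Of the 64 member values, 58 kept their sign, and the 6 that did not all came from fits with a library left out. Changing the filter, dropping the moderation or adding the replicate block alone leaves a member's fold change as it is. Its sign could not change under those alternatives. With a library left out, the log2 fold change ran from −0.35 (without control library 3) to 0.059 (without aminophylline library 3) for Obox1, from −0.27 (control library 3) to 0.11 (control library 1) for Obox2, from −0.23 (control library 3) to 0.076 (control library 1) for Obox5 and from −0.030 (control library 3) to 0.41 (aminophylline library 3) for Obox7. The family sum differed by −0.13 after rescaling, −0.18 after median centring, −0.08 as RPM and −0.09 without Obox2. When a library was left out it differed by −0.27 (without control library 3) to 0.10 (without control library 1). It was also above 0 without aminophylline library 3, at 0.068, so its direction depended on single libraries. The replicate block changed no call of a member.

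Over all genes 750 passed the threshold, 1404 with no filter, 1467 with the replicate block and 1304 with the block and median centring, which was added after the values were seen. Leaving out a library gave 329 (aminophylline library 2) to 1617 (control library 2) genes, with 369 without control library 1, 428 without aminophylline library 3 and 1474 without control library 3. Other homeobox genes past the threshold were 8 with no filter, 2 after rescaling, 2 with the unmoderated model, 8 with the replicate block and 1 (control library 1) to 6 when a library was left out. Genome activation genes were 7 after quantile normalization, 8 after median centring, 2 with the unmoderated model, 7 with the replicate block, 9 with the block and median centring and 4 to 10 (control library 2) when a library was left out. The cause was not tested.

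The limits are 3 libraries a group, reads that fit several members, and depth for Obox3 and Obox6, where a count of 0 would allow up to 3 reads, or 0.0892 to 0.213 RPM. Depth does not limit the abundant members, whose smallest read number was 5660.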
